A study of Macaca fascicularis with 11 samples.

Results

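Trophoblast cells with the highest *CGA* expression were examined in single-cell RNA sequencing data from cynomolgus macaque embryos cultured in vitro. Of 33330 cells in 11 libraries, 23229 scored highest for a trophoblast gene set, and 1354 of these made up the *CGA*-highest group, called members from here on. A cell was a member if it lay among the top 10% of the trophoblast cells of its own library by *CGA* level (in CPM, the unique molecular identifiers, or UMIs, of a gene per 1000000 UMIs of the cell) and if fewer than 2 of the extravillous genes *LAIR2*, *ISM2* and *CALCB* exceeded 100 CPM. The trophoblast call itself compared 4 scores in each cell, each the mean of the logged values of its genes. The trophoblast score used *CGA*, *XAGE3*, *PGF*, *KRT7*, *HSD3B1*, *VGLL1* and *INSL4*, and the other scores used markers of epiblast derivatives, mesenchyme and endoderm. Members were thus chosen by the measured *CGA* of each cell, so its values and those of the 28 genes of the rule are given as a description, without a test.

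*CGA* encodes the alpha subunit shared by the glycoprotein hormones. In primate trophoblast this subunit pairs with a beta subunit to form chorionic gonadotropin, the hormone that maintains the corpus luteum in early pregnancy. Chorionic gonadotropin is a known product of the syncytiotrophoblast, the multinucleated outer layer that forms when cytotrophoblast cells leave the cell cycle and fuse. The same layer makes progesterone, a synthesis that needs *HSD3B1*, a hydroxysteroid dehydrogenase. Droplet capture takes up suspended cells, so a large syncytium may be recovered only in fragments or not at all, and the data cannot tell a mononuclear cell that makes the hormone from a fragment of a syncytium.

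The libraries held frozen-thawed blastocysts grown in culture to Day 10, Day 12 or Day 14. There were 2 wild-type (WT) libraries per day, and the *ISL1*-targeted embryos, labelled as hypomorphic mutants, gave 1 library at Day 10, 2 at Day 12 and 2 at Day 14. *ISL1* is a transcription factor gene of the amnion at these stages, and the mutants came from zygotes injected with guide RNAs and Cas9, which the labels give as mRNA and the study's methods as protein, so that their cells carried a mosaic of edits. Each library pooled 1 to 3 embryos, 23 in all, and the libraries of a group are labelled as batches B1 and B2. The library was therefore the unit of replication, and p-values measure the spread between libraries. By library, members numbered 40 and 34 in the WT Day 10 libraries, 22 and 24 at WT Day 12, 86 and 30 at WT Day 14, 30 at mutant Day 10, 197 and 232 at mutant Day 12, and 452 and 207 at mutant Day 14. The targeted gene gave 0 to 15 UMIs in the members of a library and 0.901 to 8.38 CPM over all cells of a library, and these counts, read from the 3' end of the transcript, were not taken as a check of the genotype.

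Total depth was 36654977 to 164808415 UMIs per library, and the median member held 9638 to 144566 UMIs. 3 libraries stood apart in what follows. The second WT Day 10 library had the lowest *CGA* of all. The first WT Day 12 library came from 1 embryo and gave only 22 members at the highest threshold. The first mutant Day 14 library was the shallowest per cell, so that at its median member depth 1 UMI was worth 103.8 CPM and could by itself exceed the limit for an extravillous gene. Of all cells, 249 carried a cell barcode that also occurred in another library, among them 10 members, 2 of which shared theirs with each other.

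The trophoblast label held against markers that the rule did not use. 10 trophoblast genes outside the rule, among them *GATA2*, *GATA3*, *TFAP2A*, *TFAP2C* and *GCM1*, summed to between 12975 and 40009 CPM in the members of a library, with a median of 18311. *CDKN1C* and *S100P* carried most of it, at medians of 11323 and 3240 CPM. The other trophoblast cells, meaning those below the top 10% in which fewer than 2 extravillous genes exceeded 100 CPM, ranged from 4609 to 11445 CPM for this sum, endoderm from 1139 to 3971 CPM and epiblast-derived cells from 102 to 1697 CPM. Not every gene of the sum was higher in members, since *PAGE4*, *PPARG* and *HSD17B2* had medians of 679, 113 and 28.9 CPM in members and 912, 196 and 32.9 CPM in the other trophoblast cells. 6 epiblast genes outside the rule summed to 16.3 to 236 CPM in members, against 3461 to 15034 CPM in epiblast-derived cells. The sum of 6 mesenchyme genes was 7.71 to 106 CPM in members and 1168 to 2830 CPM in mesenchyme. For 5 endoderm genes the sums were 0.457 to 8.54 CPM and 392 to 2256 CPM, and 1 of the 5 had no UMI in any member. Amnion genes summed to at most 28.5 CPM in members and to 17.7 to 246 CPM in epiblast-derived cells, with medians of 4.78 and 67.4 CPM. The ranges of this set thus overlapped.

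*CGA* took a large share of the members' transcripts. It made up 1.07% to 7.81% of all member UMIs in a library. Summed over members, *CGA* reached 25845 and 10683 CPM in the WT Day 10 libraries, 61284 and 51169 CPM at WT Day 12, and 49174 and 53856 CPM at WT Day 14. In the mutant libraries it reached 49276 CPM at Day 10, 49921 and 48760 CPM at Day 12, and 35738 and 78104 CPM at Day 14. Both WT Day 10 libraries lay below all the others. In the same libraries the other trophoblast cells had 137 to 4529 CPM, again lowest in the second WT Day 10 library. Members, 3.39% to 10.2% of a library's trophoblast cells, held between 19.6% and 89.7% of all its *CGA* UMIs.

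**Figure D1:**
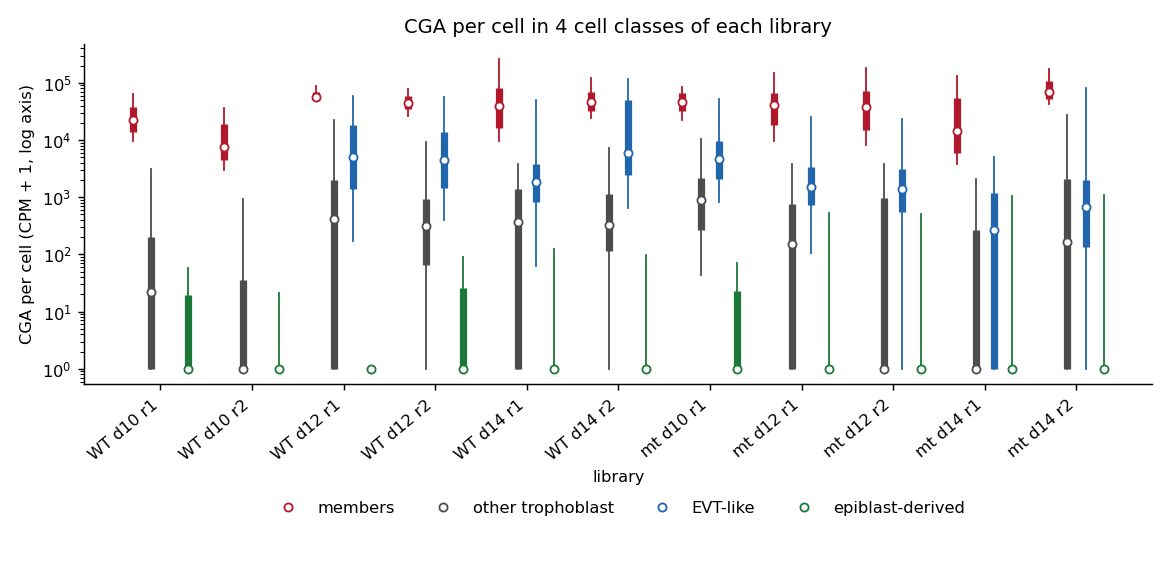
*CGA* per cell (CPM + 1, log axis) in the members, the other trophoblast cells, the EVT-like cells and the epiblast-derived cells of each library. Open points are medians, thick bars span the 25th to 75th percentile and thin bars the 5th to 95th. Member medians ran from 7529 to 68804 CPM, and the WT Day 10 libraries had no class of EVT-like cells.

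The threshold moved with the library. It was lowest, at 2633 CPM, in the second WT Day 10 library and highest, at 45696 CPM, in the first WT Day 12 library. The member at the lower edge of this last library had 46103 CPM, and the highest other trophoblast cell had 41679 CPM. In the first mutant Day 14 library the same edge lay between 3586.12 and 3585.71 CPM, so cells on either side of it were alike. Over all libraries 158 members lay within 20% of their threshold. By a fixed limit of 10000 CPM instead, 4.35% of trophoblast cells were high in the second WT Day 10 library (95% exact binomial interval 2.45% to 7.07%, counting error only) and 26.5% in the first WT Day 12 library (21.6% to 32.0%), with the other libraries in between. Membership therefore stands for a rank within a library and not for a common level of *CGA*.

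*HSD3B1* was high in members together with *CGA*, with both genes in the rule. Member values were 1182 and 954 CPM at WT Day 10, 2826 and 2217 CPM at WT Day 12, 2365 and 2173 CPM at WT Day 14, 1285 CPM at mutant Day 10, 1895 and 2295 CPM at mutant Day 12, and 856 and 1617 CPM at mutant Day 14. In the other trophoblast cells *HSD3B1* ranged from 169 to 1112 CPM, and it was higher in members in 10 of 11 libraries. The exception was the second WT Day 10 library, with 954 CPM in members against 1112 CPM in the others. A *HSD3B1* UMI was found in 79.9% to 100% of members, and in 2.65% to 44.7% of epiblast-derived cells, which should lack the gene, at median depths of 9638 to 144566 and 7772 to 132920 UMIs per cell.

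The remaining genes of the trophoblast score did not all follow. *PGF*, placental growth factor, had a fitted log2 fold change of 3.33 over the other trophoblast cells and a median of 2030 against 245 CPM. *INSL4*, a relaxin-family peptide, had a fold change of 1.83 and *KRT7*, a simple-epithelium keratin, of 1.41. *XAGE3* differed by 0.53 and *VGLL1* by 0.36, with *VGLL1* lower in members in 6 of 11 libraries on plain CPM. The extravillous genes that the rule limits also differed. *LAIR2*, a decoy collagen receptor, was 4.25 higher on the log2 scale, with 3.20 to 809 CPM in members against 0.720 to 103 CPM in the others, and *CALCB* was 1.59 higher, while *ISM2* was 1.52 lower (log2 −1.52). Between 5.88% and 81.8% of a library's members exceeded 100 CPM for exactly 1 of these 3 genes, and *LAIR2* alone exceeded it in 0% to 70% of members.

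The limit on extravillous genes removed many cells of high *CGA*. Of 2329 cells in the top 10%, 975 were left out because at least 2 of the genes exceeded it, from 0 cells in the first WT Day 10 library to 66.3% of a library's top cells. The median *CGA* of the cells removed ran from 4289 to 124694 CPM across libraries, so they overlapped the members in *CGA* level. In all, 9647 trophoblast cells had at least 2 of the 3 genes above 100 CPM, whatever their *CGA*, and these are called EVT-like below. They made up 0% and 0.290% of trophoblast cells in the WT Day 10 libraries and 20.8% to 54.7% in the others.

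The deposited matrix had been corrected for free RNA, with the contamination estimated from chorionic gonadotropin transcripts. Epiblast-derived cells, which should lack the hormone, had 9.25 to 486 CPM of *CGA* before correction and 0 to 250 CPM after it. After correction their median cell had no *CGA* UMI in any library, but single cells reached 27877 CPM, and whether such cells were doublets or wrongly called was not tested. The correction took away 0.0449% to 2.29% of the members' *CGA* UMIs and 2.62% to 59.1% of those of the other trophoblast cells. Applying the rule to the uncorrected matrix gave 1255 members, 1222 of them among the 1354.

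Fewer genes were detected in members than in the other trophoblast cells at a fixed number of UMIs. At an equal depth of 5000 UMIs per cell, the median member had on average 1578 detected genes and the median other cell 1821, a difference of −243 ± 137 (SD, n = 11 libraries), and members were lower in 11 of 11 libraries (exact paired sign-flip test, two-sided, adjusted p = 0.00130). For this, 91 members and 769 other cells with fewer UMIs were left out. The thinned UMIs include *CGA*, on which members were chosen, and without the 28 genes of the rule the difference was −198 ± 136 genes, again lower in 11 of 11 libraries (exact paired sign-flip test, adjusted p = 0.00130). Mitochondrial transcripts took 5.19% of UMIs in members and 6.88% in the others, a difference of −1.68 ± 1.40 percentage points with the same adjusted p and 11 of 11 libraries lower. The median cell was highest in the first mutant Day 14 library, at 8.50% in members and 8.98% in the others. Before this thinning the median member held slightly more UMIs than the median other cell, by 0.12 ± 0.19 on the log2 scale. It was higher in 9 of 11 libraries (exact test, adjusted p = 0.0586). Without the UMIs of the rule's genes the difference was 0.04 ± 0.19, higher in 6 of 11 libraries (exact test, adjusted p = 0.501). The smallest p that 11 libraries allow in this test is 0.000977. With the rule's genes in the totals, *CGA* among them, leaving out the first WT Day 10 library gave 0.16 (exact test, adjusted p = 0.00586). No doublet caller was run, and doublets were not tested as a part of any difference.

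For all further genes, UMIs were summed over the members and over the other trophoblast cells of each library and compared within libraries with edgeR. The same cells and counts chose the members, so this comparison asks which genes went along with *CGA* inside a library and how steadily they did so over libraries. Of 10566 genes tested, 53.6% passed a false discovery rate of 1%, 2693 higher (25.5%) and 2968 lower (28.1%), which is the background for the counts that follow. The balance depended on the scaling. The median gene was −0.10 on the log2 scale under the composition scaling used here (TMM) and −0.50 when only library totals were used, where 1663 genes were higher and 4694 lower. Folds below are from the TMM fit, values in CPM are on library totals, and "higher in n libraries" refers to CPM. Only 960 genes (9.09%) were both called higher and above the other cells by CPM in every library, against 2844 (26.9%) called lower and below in every library. These counts join calls under TMM with directions on library totals, where the median gene was lower, so their balance depends on the scaling as well.

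**Figure D2:**
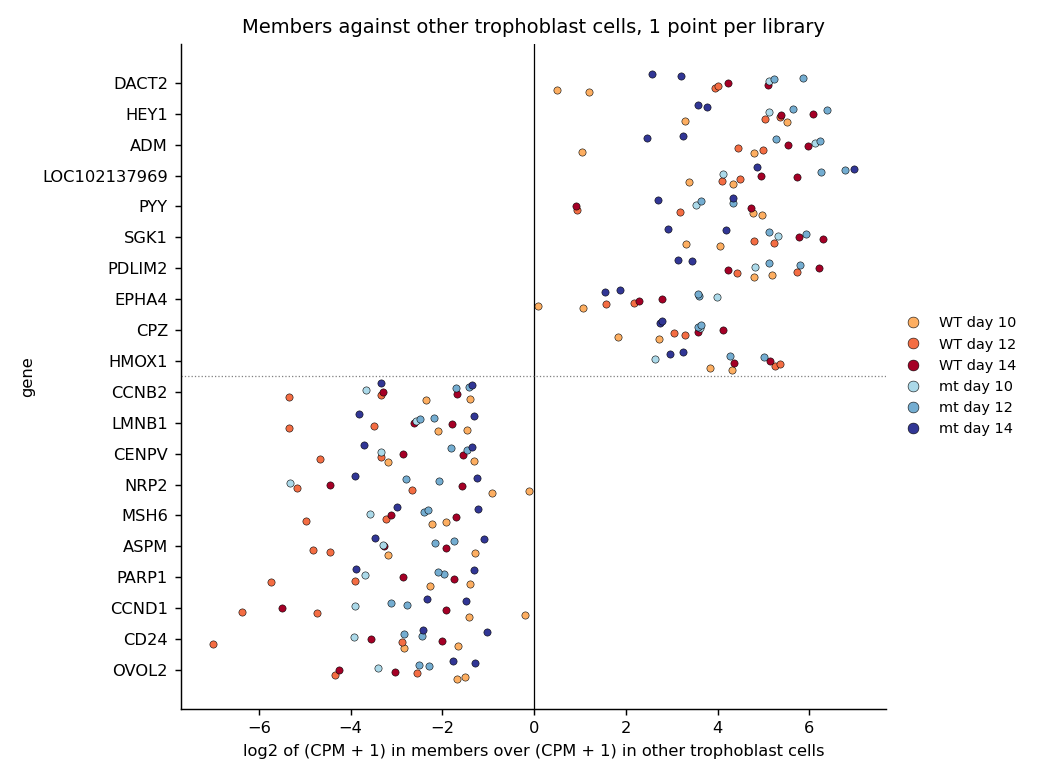
Log2 of CPM + 1 in members over CPM + 1 in other trophoblast cells, 1 point per library, coloured by genotype and day. Shown are the 10 genes with the largest and the 10 with the smallest fold change among called genes with a symbol. All points of *DACT2* to *HMOX1* lie to the right of 0 and all points of *CCNB2* to *OVOL2* to the left, as the choice of called genes with 1 direction in every library requires, and the WT Day 10 libraries lie closest to 0 for *DACT2* and *EPHA4*.

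The list of hormone and secreted factor genes held 8 tested genes, of which 3 were higher and 1 lower in members, with a median log2 fold change of 0.86. It does not hold *PYY*, a peptide hormone gene that was also called higher (5.45). *ADM* encodes adrenomedullin, a vasodilator peptide. In the WT libraries its member values were 59.7 and 8.91 CPM at Day 10, 197 and 67.1 CPM at Day 12, and 127 and 85.1 CPM at Day 14. In the mutant libraries they were 166 CPM at Day 10, 166 and 108 CPM at Day 12, and 26.0 and 130 CPM at Day 14. Other trophoblast cells had 0.862 to 12.9 CPM of *ADM*, and within each library the members were higher. The fold change was 5.66 ± 0.59 (SE, edgeR adjusted p = 2.2e-06). Here and below, the SE of a fold change was derived as its size over the square root of its F statistic. *NPPB*, which encodes the natriuretic peptide BNP, rose by 2.32 ± 0.30 (edgeR adjusted p = 1.9e-05), with 998 to 7559 CPM in members and 60.2 to 2452 CPM in the others, and was lower in members only in the first WT Day 12 library (1870 against 2334 CPM). *TFPI*, an inhibitor of coagulation, rose by 1.57, and the stanniocalcin gene *STC2* fell by 2.00, from 8.19 to 71.4 CPM in the others to 0 to 32.0 CPM in members. *TGFB1*, *IGFBP3*, *IGFBP4* and *SPP1* did not pass the test, with fold changes of 0.59 to 0.88. The beta subunit genes, placental lactogen and growth hormone genes of this list had no identifier in the name table used and were not analysed here.

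Of 389 genes ranked for likeness to *CGA*, those with a symbol and at least 50 CPM on average in trophoblast cells, *LOC102137969* came first after *CGA* itself. It had 2544 and 506 CPM in members at WT Day 10, 14018 and 9590 CPM at WT Day 12, and 8803 and 7387 CPM at WT Day 14. In mutant libraries its values were 12057 CPM at Day 10, 11641 and 8954 CPM at Day 12, and 5789 and 15220 CPM at Day 14. The other trophoblast cells had 45.1 to 825 CPM of *LOC102137969*, and its fold change was 5.50 ± 0.33 (edgeR adjusted p = 1.0e-08). In the RefSeq gene table of the assembly T2T-MFA8v1.1 it lies between *LHB* and *NTF4*, in a stretch of 8 genes of which 5 are protein coding and none carries a name. In the human genome the stretch between these genes holds the chorionic gonadotropin beta subunit genes, which are near copies of each other. Counts of *LOC102137969* are uncertain to the extent that reads were shared with such neighbours, and its identity was not established here.

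The list of steroid and sterol genes, which also holds the lipid genes *STARD10*, *FADS3* and *SCD*, rose in part. Of 8 tested, 4 were higher and none lower, with a median of 0.82. *FDX1*, the ferredoxin that passes electrons to the mitochondrial steroid-making enzymes, had 190 and 269 CPM in members at WT Day 10, 3365 and 2503 CPM at WT Day 12, and 1126 and 1152 CPM at WT Day 14. In the mutants *FDX1* had 949 CPM at Day 10, 2008 and 1272 CPM at Day 12, and 387 and 965 CPM at Day 14. Values in the other trophoblast cells were 145 to 549 CPM. *FDX1* was higher in members in every library, though by little at WT Day 10, where the others had 164 and 267 CPM, and its fold change was 2.14 ± 0.28 (edgeR adjusted p = 1.8e-05). *STARD10*, a lipid transfer gene, rose by 1.95, the cholesterol synthesis gene *SC5D* by 1.24 and *FADS3* by 1.22. *SC5D* was higher by CPM in 8 of 11 libraries and lost its call under library totals (0.83, edgeR adjusted p = 0.021), with the top 20% as members, and without the mutant Day 10 or the second mutant Day 14 library. *HSD17B2*, which inactivates estradiol, did not pass (0.42), and *PGRMC1* was the lowest of the list at −0.36.

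Among 17 transcription factor genes of trophoblast identity and fusion, 8 were higher and 2 lower, with a median of 0.20. *GCM1*, which drives syncytiotrophoblast formation, had 264 and 246 CPM in members at WT Day 10, 407 and 396 CPM at WT Day 12, and 147 and 243 CPM at WT Day 14. Its mutant values were 192 CPM at Day 10, 228 and 201 CPM at Day 12, and 150 and 242 CPM at Day 14. All of these exceeded the 46.5 to 123 CPM of the other trophoblast cells, so the classes did not overlap, and the fold change of *GCM1* was 2.06 ± 0.12 (edgeR adjusted p = 6.5e-09). The general trophoblast factors *TFAP2A* (2.70), *GATA2* (2.68), *TFAP2C* (2.30) and *GATA3* (1.70) rose as well, and so did *NR2F6*, *MSX2* and *ARID3A*, by 1.28, 1.26 and 1.13. *IRX2* and *NRIP1* fell by 1.90 and 1.67. *PPARG*, also known from trophoblast differentiation, had a fold change of −0.39 and did not pass, and *HAND1*, at −1.27, missed the threshold (edgeR adjusted p = 0.012).

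Imprinted growth genes gave 4 higher and 0 lower of 5 tested, with a median of 1.42. *CDKN1C* encodes an inhibitor of cyclin-dependent kinases that holds cells out of the cycle. Members had 11323 and 8136 CPM of *CDKN1C* at WT Day 10, 29699 and 19834 CPM at WT Day 12, and 13015 and 10843 CPM at WT Day 14. The mutant members had 9059 CPM at Day 10, 12417 and 10574 CPM at Day 12, and 7492 and 11618 CPM at Day 14. In the other trophoblast cells it had 1676 to 6727 CPM, so no member value overlapped them. *CDKN1C* rose by 2.23 ± 0.16 (edgeR adjusted p = 7.0e-08), *PHLDA2*, which restrains placental growth, by 2.30, *MEST* by 1.42 and *NNAT* by 1.2. *NNAT* lost its call under library totals (0.84, edgeR adjusted p = 0.027) and without the first WT Day 10 library.

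Proliferation genes fell. Of 18 tested, 14 were lower and 1 higher, with a median of −1.13, and their summed share of UMIs in the median cell was 0.143% in members and 0.294% in the others, lower in 11 of 11 libraries (difference −0.151 ± 0.0411 percentage points, exact paired sign-flip test, adjusted p = 0.00130). *MKI67*, the Ki-67 gene, ranged from 3.19 to 76.4 CPM in members with a median of 36.3, and from 94.6 to 177 CPM in the others with a median of 149, without overlap. The spindle gene *ASPM* (−2.32), the lamin gene *LMNB1* (−2.20) and the cyclin gene *CCNB2* (−2.14) were lowest. The exception was *PCLAF*, a PCNA-binding factor gene, which rose by 1.39 ± 0.14 (edgeR adjusted p = 1.4e-06), with 454 to 907 CPM in members against 239 to 447 CPM in the others. Among members, *MKI67* was lowest in the first WT Day 12 library and highest in the second mutant Day 12 library.

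Endoplasmic reticulum and secretory genes gave 12 higher and 0 lower of 15 under TMM, with a median of 0.60, but 4 higher and 1 lower under library totals. The 4 that were higher under both scalings were *HERPUD1* (2.84), *DDIT3* (2.59), *SDF2L1* (1.14) and *HSP90B1* (0.94). *HERPUD1*, which is induced when unfolded proteins build up, had 203 to 1029 CPM in members and 65.3 to 148 CPM in the others, without overlap. For the chaperone gene *PPIB*, the fold change was 0.44 under TMM and 0.03 under library totals (edgeR adjusted p = 0.86), and it was higher by CPM in 6 of 11 libraries. The rise of the secretory list as a whole was therefore tied to the scaling.

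Stress genes had the highest median of the lists, 3.31, with 6 higher and 1 lower of 8. *SGK1*, a kinase gene induced by steroid hormones and by osmotic stress, had 1068 and 589 CPM in members at WT Day 10, 1763 and 609 CPM at WT Day 12, and 339 and 272 CPM at WT Day 14. Its mutant values were 893 CPM at Day 10, 484 and 311 CPM at Day 12, and 198 and 442 CPM at Day 14. In the other trophoblast cells *SGK1* had 3.33 to 63.6 CPM, below every member value, and its fold change was 5.36 ± 0.35 (edgeR adjusted p = 2.3e-08). *HMOX1*, heme oxygenase, had 150 to 8130 CPM in members and 7.85 to 212 CPM in the others, *SAT1*, a polyamine catabolism gene, rose by 4.46, *ATF3* by 3.63 and *HSPB1* by 2.98, while *FOS* fell by 1.42. Stress genes can also be induced while embryos are dissociated, and a part of dissociation in these values was not tested.

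The hypoxia and glycolysis list split, with 6 higher and 9 lower of 20 and a median of −0.27. Genes that rose included the angiopoietin-like gene *ANGPTL4* (2.25), the glucose transporter gene *SLC2A1* (2.23) and *EGLN3* (1.99). *SLC2A1* had 247 to 1408 CPM in members against 81.7 to 351 CPM in the others and was higher in 11 of 11 libraries. Enzymes of glycolysis were among those that fell, such as *ENO1* (−1.46), *PGM1* (−1.19), *PGK1* (−0.67) and *TPI1* (−0.67), and the collagen hydroxylase gene *P4HA1* was lowest (−1.60).

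The lists of transport, complement and S100 genes that follow were called in each direction at shares near those of all genes. Of 11 tested transport and membrane genes, 3 were higher and 2 lower with a median of 0.32, led by the cholesterol efflux gene *ABCA1* (3.57), the microvillus linker gene *EZR* (2.51) and the amino acid transporter subunit gene *SLC3A2* (1.77), with *SLC25A24* lowest (−1.33). Complement and immune surface genes gave 3 higher and 3 lower of 12 with a median of −0.34, and 3 higher and 7 lower under library totals. *CD55*, which protects cells from complement, had 17.4 to 1142 CPM in members and 9.71 to 112 CPM in the others, was higher in 11 of 11 libraries and rose by 3.51 ± 0.24 (edgeR adjusted p = 3.9e-08). The complement inhibitor gene *CD59* rose by 1.85 and *VSIR* by 1.94, and *LY6E* fell by 1.35. S100, annexin and galectin genes gave 4 higher and 5 lower of 14 with a median of 0.18, from *ANXA1* at 3.21 to *ANXA3* at −2.10.

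Epithelial and cytotrophoblast genes gave 3 higher and 2 lower of 12, with a median of 0.15. These counts too were near or under the shares of all genes, 25.5% higher and 28.1% lower. The keratin genes *KRT18* and *KRT8* rose by 2.08 and 1.45, each higher by CPM in 9 of 11 libraries, and the protease inhibitor gene *SPINT2* rose by 0.99. The laminin receptor subunit gene *ITGA6*, a marker of cytotrophoblast on its basement membrane, fell by 1.65, from 29.8 to 81.4 CPM in the others to 3.51 to 40.9 CPM in members, and *EPCAM* fell by 0.81. *PAGE4*, abundant in cytotrophoblast, did not pass (0.12) and was lower by CPM in 10 of 11 libraries. Invasive trophoblast genes gave 4 higher and 0 lower of 10 with a median of 0.64, the highest being the endothelial adhesion genes *PECAM1* (3.07) and *CDH5* (1.51). *FN1*, with 0 to 48.5 CPM in members, lost its call under library totals (0.77, edgeR adjusted p = 0.021), and *PLAU* was lowest at −0.48.

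**Figure D3:**
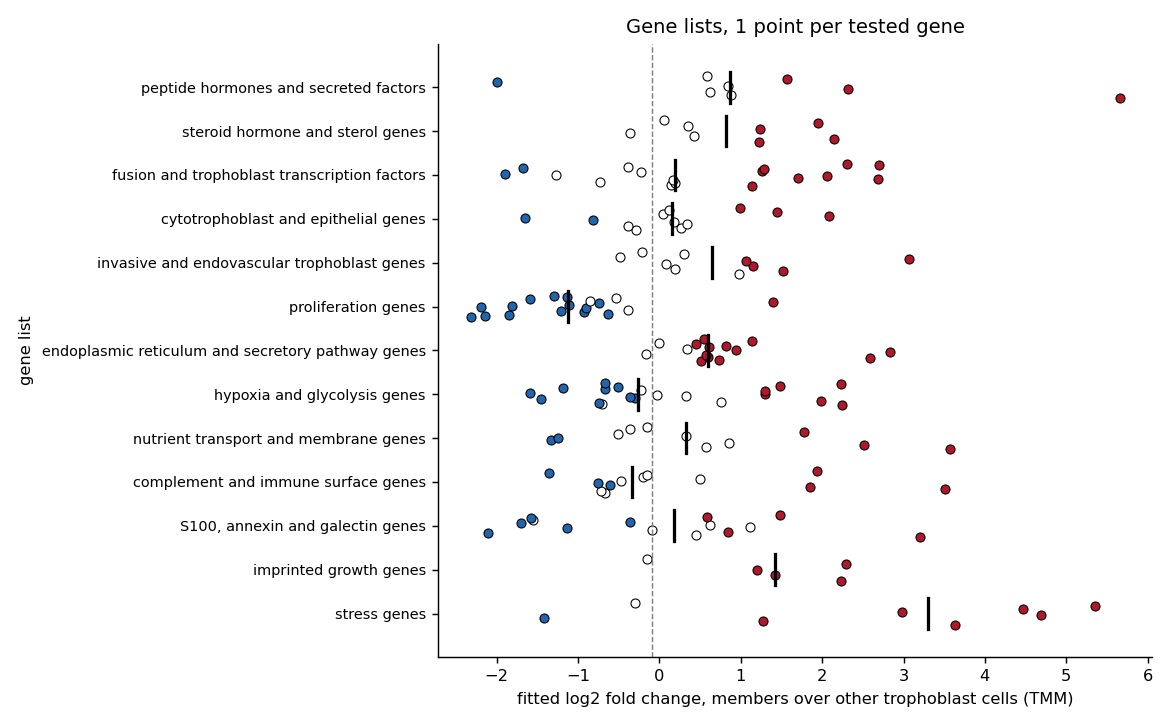
Fitted log2 fold change of members over other trophoblast cells for each tested gene of 13 lists. Filled red and blue points passed the 1% false discovery rate as higher and lower, open points did not, black bars are list medians and the dashed line is the median of all genes (−0.10). Stress genes lie farthest to the right (median 3.31) and proliferation genes farthest to the left (median −1.13).

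Among called genes with a symbol that moved in 1 direction in every library, *DACT2*, an antagonist of WNT and NODAL signalling, had the largest fold change (6.31 ± 0.44, edgeR adjusted p = 3.8e-08), with 0.457 to 79.6 CPM in members and 0.0304 to 1.41 CPM in the others. *HEY1*, a target of Notch signalling, followed (6.0 ± 0.35, edgeR adjusted p = 7.5e-09), with 14.4 to 490 CPM in members and 0.569 to 21.9 CPM in the others. The peptide hormone gene *PYY* (5.45), the actin-binding gene *PDLIM2* (5.32), the ephrin receptor gene *EPHA4* (4.86) and the carboxypeptidase gene *CPZ* (4.83) completed the genes of largest fold change with *ADM*, *LOC102137969*, *SGK1* and *HMOX1*. *EPHA4* and *PYY* were low, at medians of 5.23 and 21.1 CPM in members. The lowest values of *DACT2*, 0.457 CPM in members and 0.0304 CPM in the others, also rest on few UMIs. The genes of lowest fold change were *OVOL2* (−2.49), a repressor of epithelial-to-mesenchymal change, *CD24* (−2.44), *CCND1* (−2.42), the DNA repair genes *PARP1* (−2.33) and *MSH6* (−2.27), *NRP2* (−2.27) and *CENPV* (−2.20), together with *ASPM*, *LMNB1* and *CCNB2*. *CD24* had 498 to 955 CPM in the other trophoblast cells and 2.87 to 333 CPM in members, without overlap.

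Against the EVT-like cells, which are the trophoblast class closest to the members in *CGA*, the comparison used 9 libraries, since the WT Day 10 libraries had too few EVT-like cells. EVT-like cells had 2721 to 32199 CPM of *CGA*. Of 9603 genes, 33.2% passed, 1631 higher (17%) and 1558 lower (16.2%) in members, and under library totals 1091 and 2132. Of the genes called under TMM, 844 (8.79%) were higher and 1444 (15%) lower by CPM in every library, a balance that again depends on the scaling. The rule kept EVT-like cells apart by *LAIR2*, *ISM2* and *CALCB*, so lower values of extravillous genes in members follow in part from it. Invasive trophoblast genes gave 0 higher and 6 lower of 10, with a median of −1.63. *FN1*, fibronectin, had 11.6 to 615 CPM in EVT-like cells and 0 to 48.5 CPM in members and fell by 4.06 ± 0.37 (edgeR adjusted p = 1.2e-05). The protease inhibitor gene *SERPINE2* was lowest of all (−4.87), followed by the protease gene *CTSE* (−4.85), with 9.88 to 79.5 CPM in EVT-like cells and 0 to 6.83 CPM in members. *EPSTI1* (−4.59), *ACTA1* (−4.00), *PALLD* (−3.86), *IGFBP3* (−3.68), *OVOL2* (−3.59), *FHL2* (−3.48) and *CD53* (−3.43) completed the genes of lowest fold change.

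*TBX3*, a T-box repressor gene, was highest relative to EVT-like cells among the genes ranked in this way (4.01 ± 0.30, edgeR adjusted p = 4.3e-06). It had 282 to 1550 CPM in members, 8.57 to 187 CPM in the other trophoblast cells and 15.5 to 193 CPM in EVT-like cells, so that members overlapped neither class. *ID2*, an inhibitor of helix-loop-helix factors, was as high (4.01), followed by the kinesin gene *KIF21A* (3.99), *SGK1* (3.85), *HEY1* (3.83), *ANXA9* (3.46), *ADM* (3.39), *NMRK2* (3.38), *EPB41L3* (3.24) and *DACT2* (3.19). *LOC102137969* was 2.71 higher than in EVT-like cells, which had 613 to 5222 CPM. *GCM1* (0.65, edgeR adjusted p = 0.052) and *CDKN1C* (0.81, edgeR adjusted p = 0.022) did not pass against EVT-like cells, unlike *GATA2* (2.49), *TFAP2A* (2.18) and *TFAP2C* (2.08).

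The same gene lists were counted against EVT-like cells, without a test of whether these counts differ from those above. Of all genes tested against EVT-like cells, 17% were higher and 16.2% lower in members. The proliferation and secretory lists below were called near or under these shares in each direction. The steroid and sterol list, with its lipid genes, gave 5 higher and 1 lower of 8 with a median of 1.40. The gene that fell was *HSD17B2* (−2.88), with 150 to 619 CPM in EVT-like cells and 0.385 to 125 CPM in members. The list of transcription factor genes of trophoblast identity and fusion, which does not hold *TBX3*, *HEY1* or *OVOL2*, gave 6 higher and 4 lower of 17, from *MSX2* (2.83) to *NRIP1* (−2.35), with a median of 0.43. Epithelial genes gave 6 higher and 0 lower of 12 with a median of 0.78, from *BCAM* (1.85) to *CTSL* (−0.89, not called). Proliferation genes gave 1 higher, *PCLAF* (2.50), and 2 lower of 17, *LMNB1* (−1.85) and *STMN1* (−1.75). Secretory genes gave 2 higher, *DDIT3* (2.26) and *HERPUD1* (1.30), and 1 lower of 15, *ERO1A* (−1.46). Stress genes gave 4 higher and 0 lower of 8, from *SGK1* (3.85) to *FOS* (−0.59, not called).

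Hormone genes gave 2 higher, *ADM* and *NPPB* (1.99), and 1 lower of 8, *IGFBP3*, in this comparison. These counts lie near the shares of all genes, 17% higher and 16.2% lower. The call of *NPPB* was lost under 8 alternatives, namely library totals (1.69, edgeR adjusted p = 0.020), the top 5% as members, no library block and the fits without the first WT Day 14 library or any 1 of the 4 mutant libraries of Day 12 and Day 14, with adjusted p up to 0.105. Hypoxia and glycolysis genes gave 5 higher and 7 lower of 20, from *EGLN3* (2.88) to *PGM1* (−1.44). Transport genes gave 4 of 11 in each direction, from *SLC3A2* (2.03) to *SLC26A2* (−2.25). Complement and immune surface genes gave 2 higher, near the share of all genes, and 4 lower of 12, from *CD55* (1.85) to *CD9* (−1.77). The list of S100, annexin and galectin genes, which does not hold *ANXA9*, gave 0 higher and 4 lower of 14, from *LGALS1* (0.90, not called) to *ANXA3* (−3.36), and imprinted genes gave 2 higher and 0 lower of 4, from *MEST* (1.52) to *SNRPN* (0.32, not called).

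Which genes followed *CGA* cell by cell was described by the Spearman correlation across the trophoblast cells of each library, EVT-like cells included. These correlations share each library's depth and free RNA and carry no test. The ranking covered the same 389 genes with a symbol and at least 50 CPM, and most genes of the files were not ranked. *LOC102137969* was highest among them, with a median over the 11 libraries of 0.737 and a range of 0.545 to 0.891. The genes outside the rule that came next were *IGSF8* (0.586), *WIPI1* (0.581), *GCM1* (0.576), *CDKN1C* (0.560), *GNAI1* (0.547), *KIF2A* (0.534), *LOC102142214* (0.514), *NPPB* (0.502) and *CD59* (0.495). Of the rule's own trophoblast genes, *PGF* had 0.580, *HSD3B1* 0.457 and *INSL4* 0.426, while *KRT7* had 0.148, *XAGE3* −0.031 and *VGLL1* −0.039.

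When cells were sorted by *CGA* level regardless of library, some genes climbed over the whole range and others mainly at its upper end. EVT-like cells were left out, and the bins held 6362 cells under 100 CPM of *CGA*, 3122 cells from 100 to 1000, 2731 from 1000 to 10000, 520 from 10000 to 30000 and 847 above, with values taken per library where it had at least 20 cells (11, 11, 11, 9 and 8 libraries). *GCM1* had medians over libraries of 44.3, 79.2, 122, 178 and 230 CPM from the lowest to the highest bin, and *CDKN1C* 2497, 3554, 5028, 8870 and 11656 CPM. *HSD3B1* went from 241 over 390, 590 and 1176 to 2319 CPM. *NPPB* went from 147 over 661, 1763 and 5286 to 4844 CPM, so its medians in the upper pair of bins did not differ beyond their spread over libraries (784 to 7161 and 1188 to 7699 CPM).

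*ADM*, in contrast, had 0.760, 1.18 and 1.63 CPM in the lowest 3 bins and then 21.5 and 172 CPM. *SGK1* had 4.45, 4.11, 21.0, 195 and 483 CPM. *CD55* went from 30.9 over 53.7 and 64.7 to 191 and 765 CPM, and *FDX1* from 302 over 342, 348 and 445 to 1417 CPM. *MKI67* had 138, 157 and 126 CPM in the lowest 3 bins and 74.4 and 26.0 CPM in the upper pair. *PAGE4* had no such order, with 933, 965, 762, 591 and 993 CPM. Since fewer libraries reach the upper bins, the order of bins is partly an order of libraries, and no test was made of it.

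**Figure D4:**
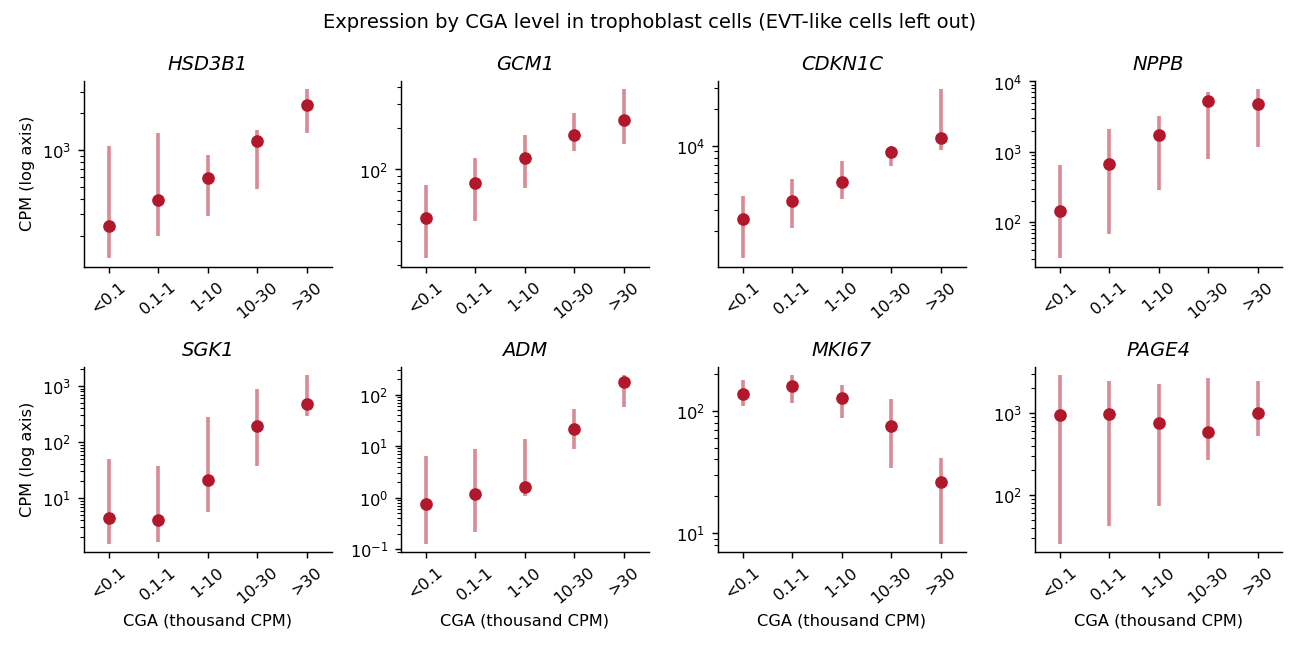
CPM (log axis) of 8 genes by the *CGA* level of the cell, in the 5 bins given above, over trophoblast cells without EVT-like cells. Points are medians over the libraries with at least 20 cells in a bin and bars run from the lowest to the highest library. *GCM1*, *CDKN1C* and *ADM* increase from bin to bin, *ADM* mainly from the fourth bin, and *SGK1* increases from the third bin. *MKI67* decreases at the upper end and *PAGE4* stays between 591 and 993 CPM.

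Members were compared between days and genotypes over libraries, with all 11 libraries sharing an estimate of the spread. No gene of 11043 passed 1% for WT Day 14 against WT Day 10, for mutant against WT at Day 14 or for mutant against WT at Day 12, by edgeR. At an unadjusted p under 0.05 there were 1937 genes (17.5%), 1115 (10.1%) and 3002 (27.2%), the lowest adjusted p being 0.0298, 0.0184 and 0.0291, and DESeq2 called 426, 107 and 751 genes. Each of these groups held 2 libraries, and a gene that did not pass is not shown to be equal between them. The extravillous limit also removed far fewer top cells at WT Day 10 than at WT Day 14, as given below. At Day 14 it removed 64.5% and 66.3% of the top cells in the WT libraries and 31.4% and 23.3% in the mutant libraries. At Day 12 the shares were 26.7% and 61.3% in WT and 55.1% and 44.4% in mutant libraries. Members of the 2 genotypes at Day 14 are thus also unlike parts of the top cells, and a part of this in their differences, *NPPB* included, was not tested.

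Of the genes described above, *NPPB* is given here in full and *GCM1* and *CDKN1C* in brief, chosen after their values were seen. Its members had 1052 and 1137 CPM at WT Day 10, 1870 and 2302 CPM at WT Day 12, and 6601 and 5418 CPM at WT Day 14. In mutant libraries *NPPB* had 7559 CPM at Day 10, 4847 and 5436 CPM at Day 12, and 1003 and 998 CPM at Day 14. The WT values of *NPPB* were lower than the mutant values at Day 10 and Day 12 and higher at Day 14. The share of all genes whose groups lie apart like this was not counted, so it is no result particular to *NPPB*. The log2 difference was 2.29 ± 0.32 for WT Day 14 over Day 10 (edgeR adjusted p = 0.033) and −2.43 ± 0.32 for mutant over WT at Day 14 (edgeR adjusted p = 0.047), short of the threshold. Both passed it under library totals (2.46 and −2.59, edgeR adjusted p = 0.0098 and 0.0094), with DESeq2 and without the filter on low genes. The other trophoblast cells of the same libraries had 733 and 1446 CPM of *NPPB* at WT Day 14 and 60.2 and 470 CPM at mutant Day 14, and the member-minus-other difference changed with genotype by a log2 value of 0.14 ± 0.66, which did not pass (edgeR adjusted p = 1.0). For *GCM1* the mutant-minus-WT difference was −1.56 ± 0.44 at Day 12 (edgeR adjusted p = 0.066) and 0.22 ± 0.43 at Day 14 (edgeR adjusted p = 0.90). For *CDKN1C* it was −1.81 ± 0.48 at Day 12 (edgeR adjusted p = 0.059) and −0.12 ± 0.46 at Day 14. At Day 12 the median of all genes was 0.04 under TMM and 0.68 under library totals, where *GCM1* had −0.91 and *CDKN1C* −1.11 without a call. With DESeq2 both passed at Day 12 (adjusted p = 0.0086 and 0.0040), as did *CDKN1C* without the filter on low genes (edgeR adjusted p = 0.0012). Mutant Day 10 was 1 library, so its values have no replicate check.

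A further fit asked whether the difference between members and other trophoblast cells itself changed between WT Day 10 and WT Day 14. The limit on extravillous genes had removed 0% and 2.86% of the top cells of the WT Day 10 libraries, and 64.5% and 66.3% at WT Day 14. Members of these days are thus unlike parts of the top cells, and a part of this in the changes was not tested. The fit called 33 of 13664 genes (0.242%), 15 with a higher (0.11%) and 18 with a lower (0.132%) member-minus-other difference at Day 14. At an unadjusted p under 0.05 there were 1712 (12.5%). Under library totals the calls were 34 higher and 11 lower, so their balance turned with the scaling. Of the 33, only *DNMT3L*, *DAB2* and *SMAP2* had a symbol in the names used here. *DNMT3L*, a cofactor of DNA methylation, fell from Day 10 to Day 14 in both classes but far more in the others. Members had 207 and 129 CPM of *DNMT3L* at WT Day 10, 1522 and 343 CPM at WT Day 12, and 53.6 and 40.2 CPM at WT Day 14, and the other cells 85.4 and 69.6, 38.5 and 3.55, and 0.973 and 0.808 CPM. The change in difference was 4.38 ± 0.46 on the log2 scale (edgeR adjusted p = 3.6e-04). The call was lost without the second WT Day 10 library (edgeR adjusted p = 0.011), without the first WT Day 14 library (0.028), with the top 20% as members (0.016) and without the library block (0.63).

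*DAB2*, an endocytic adaptor gene, had 476 and 199 CPM in members at WT Day 10, 886 and 2143 CPM at WT Day 12, and 253 and 796 CPM at WT Day 14. The other trophoblast cells had 297 and 320, 111 and 395, and 30.3 and 79.8 CPM of *DAB2*. Members were therefore on both sides of the others at Day 10 and above them later, a change of 2.94 ± 0.42 (edgeR adjusted p = 0.0060). *SMAP2*, a regulator of vesicle trafficking, fell in members from 65.5 and 67.2 CPM at WT Day 10 over 34.2 and 27.4 CPM at WT Day 12 to 11.5 and 5.74 CPM at WT Day 14. In the other cells *SMAP2* stayed between 12.5 and 17.5 CPM in the WT libraries, and the change was −3.15 ± 0.42 (edgeR adjusted p = 0.0038). The only mutant Day 10 library had 6.42 CPM of *SMAP2* in members against 15.8 CPM in the others, unlike the WT Day 10 libraries. *DAB2* lost its call in 4 and *SMAP2* in 4 of the 11 fits that left out 1 library (highest edgeR adjusted p = 0.066 and 0.051). Both also lost it with the top 20% as members (0.035 and 0.010) and without the library block (0.46 and 0.027), and *DAB2* under relative log expression scaling (0.012). The same question for genotype at Day 14 gave 0 calls of 13664 by edgeR, with 823 genes (6.02%) at an unadjusted p under 0.05 and 43 calls by DESeq2. Members of WT and mutant Day 14 are unlike parts of the top cells as well, and a part of this was not tested.

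**Figure D5:**
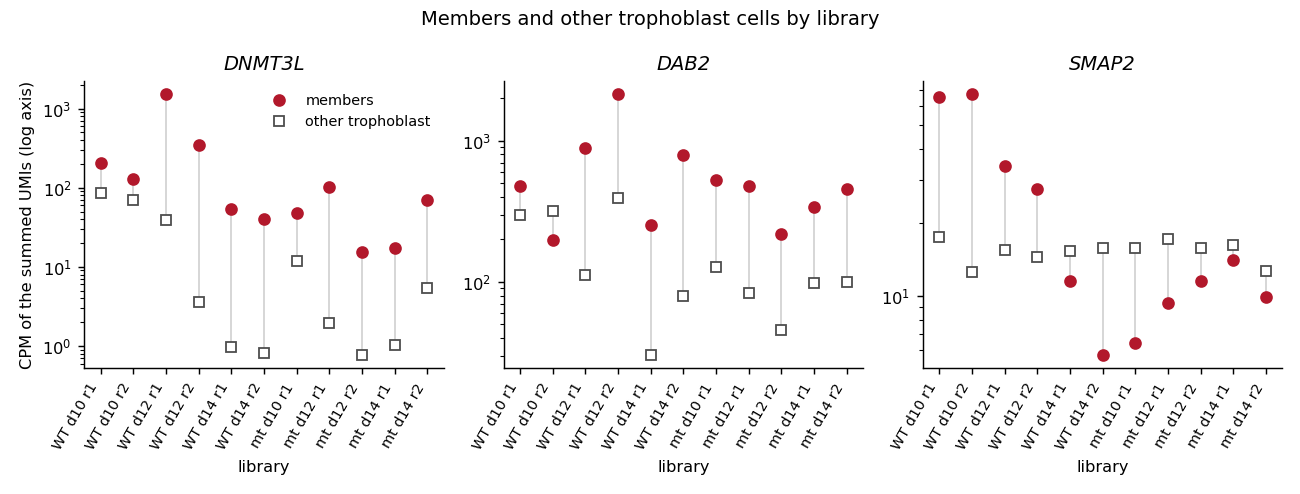
CPM (log axis) of *DNMT3L*, *DAB2* and *SMAP2* in members (filled) and other trophoblast cells (open squares) of each library, joined by a line. For *DNMT3L* the gap is wider at WT Day 14 than at WT Day 10, and for *SMAP2* members lie above the others at WT Day 10 and below them at WT Day 14.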

How the data were processed

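Droplet-based single-cell RNA libraries of 11 embryo pools were aligned and counted by the authors with Cell Ranger 3.1.0. The deposited count matrix holds raw UMI counts of 33539 cells. The authors state that genes found in at least 3 cells and cells under 7.5% mitochondrial UMIs were kept, but over 13 mitochondrial genes the median cell of a class exceeded this limit in some libraries (up to 8.98%). They removed free RNA with SoupX, taking chorionic gonadotropin transcripts in *POU5F1*-positive cells as its measure. The result, deposited as whole-number expected counts for 33330 cells, was used throughout, and the counts served as an alternative. Since *CGA* is one of those transcripts, the correction bears on the transcript that chose the members. Depth was 36654977 to 164808415 UMIs per library. The cell names of both matrices give the library.

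Gene symbols came from the study's supplementary tables (1014 of 19367 genes), so genes without a listed symbol are counted but not named. The members and all lists were chosen with earlier results of these data known. Cells were scored as ln(1 + 10000 × UMI/total), averaged over 7 trophoblast, 5 epiblast, 7 mesenchyme and 6 endoderm genes. UMIs were summed per library and class, with at least 5 cells of each class, and genes outside the rule were tested with edgeR 4.0.16 (quasi-likelihood, TMM, filterByExpr, Benjamini-Hochberg, 1%) in R 4.3.3, with library as a block for contrasts within libraries. Measures per cell were compared with an exact paired sign-flip test over libraries, with an adjusted p under 0.05 as the threshold. DESeq2 1.42.0, other scalings, filters and cutoffs, and leaving out each library were alternatives, and the scaling by library totals and the measures per cell without the rule's genes were added after the data were seen. The scripts were tested on simulated counts drawn without an effect of library. Log2 changes of 1, 2 and 3, up and down, were planted in a small part of the genes, all of at least 5 CPM on average. The fit against other trophoblast cells recovered 82.1%, 100% and 100% of them, and that against EVT-like cells 53.7%, 89.55% and 100%. The fit of members at WT Day 14 against Day 10 recovered 0%, 0% and 22.7%. For the change between these days in the member-minus-other difference the shares were 1.49%, 29.85% and 90.8%. In the data far more genes were called within libraries, and some values of named genes lie below 5 CPM, so these shares need not hold there.

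Named genes were the rule's own, the highest and lowest of each list, the 10 with the largest and smallest fold change among called genes that moved in 1 direction in every library, and the 10 most correlated with *CGA* among 389 genes with a symbol and at least 50 CPM. Further list genes named as examples were picked after their values were seen. The labels call B1 and B2 batches and the study's methods join days within a batch, so a block for batch was the other fit of the contrasts between groups. Deviations of same-numbered libraries correlated between −0.22 and 0.17 over group pairs. The fits within libraries hold each batch in their library block. The RefSeq gene table is of another assembly and served only to name neighbours.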

Additional observations from a re-analysis of the deposited data

Results flagged for a closer look

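For *DNMT3L*, *DAB2* and *SMAP2* the difference between members and other trophoblast cells changed between WT Day 10 and WT Day 14 by a test of that change itself. The changes on the log2 scale were 4.38, 2.94 and −3.15. They were the only genes with a symbol among 33 called. The extravillous limit had removed 0% and 2.86% of the top cells at WT Day 10 and 64.5% and 66.3% at WT Day 14. Members of these days are thus unlike parts of the top cells, and a part of this in the changes was not tested. In the mutant libraries, which that test did not use in its contrast, the *DNMT3L* values of members were 48.4 CPM at Day 10, 101 and 15.2 CPM at Day 12, and 17.3 and 69.9 CPM at Day 14, against 12.0, 1.98, 0.767, 1.04 and 5.40 CPM in the other trophoblast cells. *DAB2* had 529, 475, 218, 340 and 453 CPM in the members of these libraries and 127, 83.8, 45.2, 98.9 and 99.5 CPM in the others. *SMAP2* had 6.42, 9.35, 11.5, 14.1 and 9.96 CPM in members and 15.8, 17.1, 15.8, 16.2 and 12.6 CPM in the others, below them in every mutant library. No group held 4 or more libraries, so no library was tested as an outlier within its group.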

How the results depend on the processing

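The numbers of genes called between members and other trophoblast cells (5661) and between members and EVT-like cells (3189) stayed within 1.5 times under every alternative, at 4468 to 6407 and 2577 to 4367, and at 5134 to 5582 and 2468 to 3266 when 1 library was left out. Without the replicate block that ties the classes of a library together they were 4468 and 2577. Without it, *CCND1*, *ANXA1*, *CDH5*, *FOS*, *PGK1*, *PGM1*, *TPI1* and *PPIB* lost their call against other trophoblast cells and *NMRK2*, *IGFBP3*, *ERO1A* and *MSX2* against EVT-like cells, among others, and with the top 20% as members *NRIP1* against the former and *HERPUD1*, *LMNB1* and *MEST* against the latter. The sums of genes detected, mitochondrial and proliferation UMIs kept direction and call, with −258 to −218 genes, −1.84 to −1.35 and −0.157 to −0.142 percentage points when 1 library was left out. Without the rule's genes in the totals, an alternative added after the results were seen, they were −198 genes, −1.47 and −0.144 percentage points. For UMIs per cell the range was 0.10 to 0.16, and the mean over cells gave 0.15 (exact test, adjusted p = 0.0186, past the 0.05 used for these measures). These totals held the rule's genes, *CGA* among them, and without them the difference was 0.04 (exact test, adjusted p = 0.501). Counts between groups of 2 libraries depended on the processing. For WT Day 14 against Day 10, 0 genes became 426 with DESeq2, 790 without a filter on low genes, 1 with the top 20% as members and 4 with library totals, and 0 to 1 when leaving out a library. For mutant against WT at Day 14 the numbers were 107, 314 without the filter and 3 with library totals, with 0 to 1 when leaving out a library. At Day 12 they were 751 with DESeq2 and 1166 without the filter, with 0 to 265 when leaving out a library, the 265 without the second WT Day 12 library. A replicate block over the labelled batches B1 and B2 left these 3 contrasts at 0 calls, with 1812, 995 and 2754 genes at an unadjusted p under 0.05, and so changed no call. For the change between days in the member-minus-other difference, 33 became 12 with relative log expression scaling, 214 with DESeq2, 482 without the filter, 203 with the top 5%, 3 with the top 20% and 1 without the replicate block, and 4 to 103 when leaving out a library (103 without the first and 96 without the second WT Day 12 library, 4 without the second WT Day 10 or the first WT Day 14 library). For genotype at Day 14, 0 became 43 with DESeq2, 150 without the filter, 12 with the top 5%, 3 without the rule's genes in the totals and 4 with library totals, and 0 to 8 when leaving out a library. The causes were not tested. No alternative turned the direction of a gene named here that was called.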

Other observations

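Among marker genes of other cell types fixed as lists, *COL6A1*, a collagen VI gene of the mesenchyme list, was higher in members than in other trophoblast cells by 2.72 ± 0.34 on the log2 scale (edgeR adjusted p = 1.2e-05), at 2.72 to 8.61 CPM against 0.185 to 2.17 CPM and higher in 11 of 11 libraries. Of the mesenchyme list 2 of 5 tested genes were higher and 0 lower, and all 6 of its genes together stayed at 7.71 to 106 CPM in members and 0.852 to 86.5 CPM in the others.

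The mutant Day 10 library had EVT-like cells at 31.1% of its trophoblast cells, and the WT Day 10 libraries had 0% and 0.290%. Its members had 49276 CPM of *CGA* and 7559 CPM of *NPPB*, against at most 25845 and 1137 CPM in the WT Day 10 libraries. With 1 mutant library at this day, genotype and library cannot be told apart.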
